A study of Rattus norvegicus with 9 samples.

Results

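The miR-181 family was examined in small RNA libraries of rat striatum, the region where the basal ganglia receive cortical and dopamine input and which manganese is known to injure. It was taken as 7 listed mature miRNAs, matched by name, and 7 of 7 were found among the 764 miRNA entries and 1759 small RNA entries of the count tables. They are the 5p arms rno-miR-181a-5p, rno-miR-181b-5p, rno-miR-181c-5p and rno-miR-181d-5p and the 3p arms rno-miR-181a-1-3p, rno-miR-181a-2-3p and rno-miR-181c-3p. The files hold 3 other miR-181 entries, rno-miR-181b-1-3p, rno-miR-181b-2-3p and rno-miR-181d-3p, which were not in the list.

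Rats were 8 weeks old and were dosed by gavage once a day, 6 days a week, for 8 weeks. Controls were given corn oil alone, 1 ml/kg. The MMT group received methylcyclopentadienyl manganese tricarbonyl, an organic manganese fuel additive, dissolved in corn oil, at 4 mg/kg (about 1 mg/kg of manganese). The MnCl2 group received manganese chloride tetrahydrate at 200 mg/kg in saline, 10 ml/kg. For this group the compound, the vehicle and its volume cannot be told apart against the corn oil control. Each group had 3 libraries, from a series of 18 rats, 9 male and 9 female, with 3 rats of each sex per group. The labels do not say which sex a library came from, nor if it was made from 1 rat or from pooled rats, so the spread behind each p-value is that between these libraries and may be technical. Total counts per library ran from 583045 (control 3) to 2012769 (control 1), a 3.45-fold range. In bulk tissue, fewer cells of a type and less RNA per cell cannot be told apart.

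A microRNA guides the Argonaute complex to messenger RNAs that pair with its seed, the bases from position 2 to position 8, and lowers their translation and stability. Each hairpin precursor yields a 5p and a 3p arm, of which one is usually kept and the other mostly degraded. The miR-181 family is abundant in brain and in lymphocytes, and it is known for setting T cell receptor sensitivity and for roles in neuronal synapses, astrocytes and mitochondrial function.

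The 4 sequences of the 5p arms are shown because they carry one seed, which sets their targets, while the rest of each sequence is what allows counting to tell them apart. Seeds are in capitals, and the sequences are those of the count tables, which for all 7 members were the same as in RefSeq (GRCr8).
rno-miR-181a-5p: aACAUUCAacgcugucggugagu
rno-miR-181b-5p: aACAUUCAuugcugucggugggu
rno-miR-181c-5p: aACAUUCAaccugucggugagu
rno-miR-181d-5p: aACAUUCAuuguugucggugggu

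With positions counted from 1 at the 5′ end, rno-miR-181b-5p differs from rno-miR-181a-5p at 3 bases (A9U, C10U, A21G). The difference between rno-miR-181d-5p and rno-miR-181b-5p is a single base (C12U). The shortest of the 4 is rno-miR-181c-5p, which at 22 bases has 1 base less than rno-miR-181a-5p and is otherwise the same sequence. Reads of neighbouring members can thus be exchanged where the authors' counting allowed a mismatch, which the sources used here do not give. No other miRNA entry in the files has the seed ACAUUCA in those positions.

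The 3p arms are shown because, unlike the 5p arms, they have different seeds and tell the 2 miR-181a genes apart.
rno-miR-181a-1-3p: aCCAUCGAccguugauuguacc
rno-miR-181c-3p: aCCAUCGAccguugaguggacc
rno-miR-181a-2-3p: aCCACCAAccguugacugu

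The seed CCAUCGA is shared by rno-miR-181a-1-3p and rno-miR-181c-3p, which differ at 2 bases (U16G, U19G). The seed CCACCAA belongs to rno-miR-181a-2-3p alone, which is also the shortest member at 19 bases. How both arms lie in 1 precursor is shown by the hairpin of Mir181a2, with the 5p arm and then the 3p arm in capitals.
Mir181a2: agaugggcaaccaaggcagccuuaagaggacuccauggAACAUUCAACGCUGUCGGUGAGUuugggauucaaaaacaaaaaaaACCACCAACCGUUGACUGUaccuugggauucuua

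The members come from 3 places in GRCr8, all on the plus strand. On chromosome 13, Mir181a-1 yields rno-miR-181a-5p (chr13:52037081-52037103) and rno-miR-181a-1-3p (chr13:52037121-52037142), and Mir181b1 next to it yields rno-miR-181b-5p (chr13:52037263-52037285). Both lie within the long noncoding RNA gene LOC108352541. On chromosome 3, Mir181a2 yields the same 5p arm (chr3:43025601-43025623) and rno-miR-181a-2-3p (chr3:43025646-43025664). The hairpin of Mir181b2 lies next to it (chr3:43026666-43026753), and the files name it as the other precursor of rno-miR-181b-5p. Both lie on the strand opposite to the orphan nuclear receptor gene Nr6a1. On chromosome 19, Mir181c yields rno-miR-181c-5p (chr19:40888314-40888335) and rno-miR-181c-3p (chr19:40888353-40888374), and Mir181d yields rno-miR-181d-5p (chr19:40888484-40888506), with no RefSeq gene overlapping the pair. A count of rno-miR-181a-5p or of rno-miR-181b-5p is thus a sum over 2 genes, 1 on each of chromosomes 13 and 3.

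The family was mainly rno-miR-181a-5p and rno-miR-181b-5p. Of 14230 counts of all 10 miR-181 entries over the 9 libraries, rno-miR-181a-5p held 5942 (41.8%) and rno-miR-181b-5p 4662 (32.8%). The 4 5p arms together held 81.5%, and the 3p arms, with the 3 outside the list, held 18.5%. Outside the list, rno-miR-181b-1-3p held 567 (3.98%), rno-miR-181b-2-3p 100 (0.703%) and rno-miR-181d-3p 85 (0.597%). The most counted 3p arm was rno-miR-181a-1-3p with 1229 counts (8.64%). Among the listed members it was followed by rno-miR-181d-5p with 579 (4.07%), rno-miR-181a-2-3p with 456 (3.2%), rno-miR-181c-5p with 418 (2.94%) and rno-miR-181c-3p with 192 (1.35%). By mean level among the 615 miRNAs that passed the filter on low counts, rno-miR-181a-5p ranked 98 and rno-miR-181b-5p 113, so neither was among the most abundant miRNAs of this tissue. The others ranked 188 (rno-miR-181a-1-3p), 242 (rno-miR-181d-5p), 254 (rno-miR-181a-2-3p), 269 (rno-miR-181c-5p) and 398 (rno-miR-181c-3p).

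All 7 members passed the filter, and levels are given as CPM, the usual depth-normalised read count, relative to the TMM-scaled library total. For rno-miR-181a-5p, which pairs with the targets of the shared seed and is the member best known from T cells, levels were 737, 474 and 455 CPM in control libraries 1 to 3. They were 724, 717 and 603 CPM in the MMT libraries and 597, 560 and 588 CPM in the MnCl2 libraries. The controls spanned the other groups, with control 1 the highest of all 9 libraries and controls 2 and 3 the lowest. The 3 MMT libraries lay above the 3 MnCl2 libraries, by 603 against 597 CPM at the nearest. Such a separation with MMT higher was found for 4.31% of the 1113 entries tested. The group means were 681 ± 67.7 CPM in MMT, 582 ± 19.2 in MnCl2 and 555 ± 158 in control (SD, n = 3), and MnCl2 and control differed by less than their spread.

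For rno-miR-181b-5p, levels were 583, 384 and 394 CPM in control, 538, 467 and 476 CPM in MMT and 420, 414 and 591 CPM in MnCl2. The groups overlapped throughout, and control 1 and MnCl2 3 were the highest. The means were 454 ± 112, 494 ± 38.5 and 475 ± 101 CPM in control, MMT and MnCl2 (SD, n = 3).

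The chromosome 19 pair was lower by about an order of magnitude. In control, MMT and MnCl2 in turn, rno-miR-181c-5p stood at 33.9, 38.2 and 48.7 CPM, at 49.4, 51.5 and 47.6 CPM, and at 74.7, 36.2 and 30.4 CPM. The MMT libraries were close together (49.5 ± 1.94 CPM) and MnCl2 1 stood highest. The neighbouring rno-miR-181d-5p stood at 46.2, 64.6 and 59.3 CPM in control, 73.3, 45.2 and 68.2 CPM in MMT and 98.2, 53.8 and 49.3 CPM in MnCl2. Both members of the pair were highest in MnCl2 1, and all groups overlapped.

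Among the 3p arms, rno-miR-181a-1-3p was the most even across groups, with a control mean of 127 ± 23.5 CPM, an MMT mean of 126 ± 10.4 and an MnCl2 mean of 125 ± 29.8 (SD, n = 3). Its libraries stood at 154, 114 and 113 CPM in control, 136, 116 and 126 CPM in MMT and 141, 91 and 144 CPM in MnCl2. An entry antisense to it over at least 16 bases, rno-miR-3570, had nearly the same counts, for example 304, 100 and 82 beside 277, 117 and 74 in the controls. Whether the counting used strand is not given, so reads of these 2 entries cannot be told apart and the level of rno-miR-181a-1-3p is uncertain. The lowest member, rno-miR-181c-3p, stood at 21.1, 15.7 and 22.8 CPM in control, 20.5, 20.1 and 17.1 in MMT and 22.1, 26.4 and 16.8 in MnCl2, again with overlap between all groups.

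The most variable member was rno-miR-181a-2-3p, the 3p arm of the chromosome 3 gene. It stood at 18.4, 52.8 and 82.2 CPM in control, 38.4, 66.6 and 31.3 CPM in MMT and 65, 69.4 and 57.7 CPM in MnCl2. The 4.47-fold range lay within the control group, so all groups overlapped. Its coefficient of variation over the 9 libraries was 38.3%, against 17.1% for rno-miR-181a-5p, 16.8% for rno-miR-181b-5p and 15.6% for rno-miR-181a-1-3p.

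**Figure D1:**
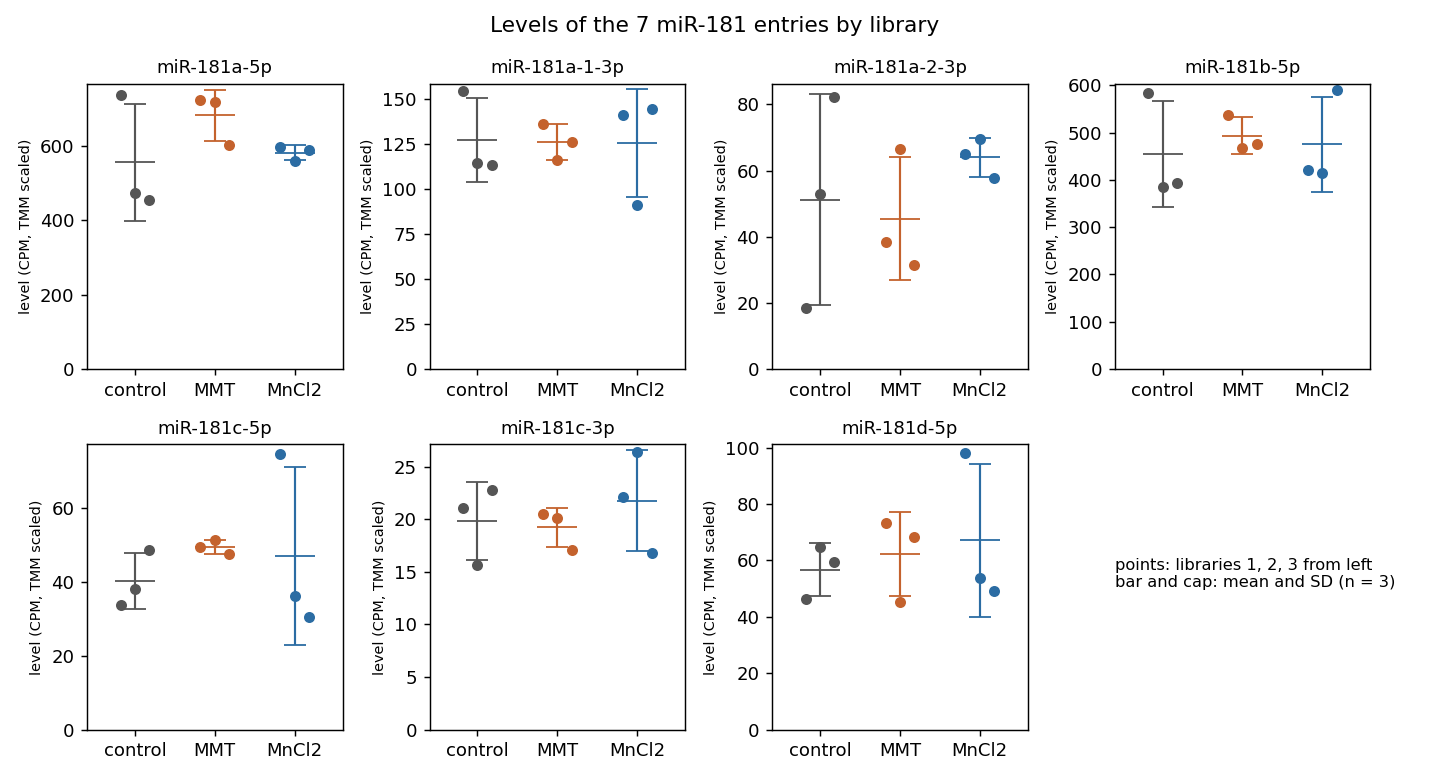
Level of each of the 7 miR-181 entries (vertical axes, CPM after TMM scaling, from 0) in the 3 groups; points are libraries 1 to 3 from left, and bars with caps are the mean and SD (n = 3). The groups overlap in every panel except MMT against MnCl2 for miR-181a-5p, where the lowest MMT library (603 CPM) is above the highest MnCl2 library (597 CPM).

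The first comparison asks how the family stands after MMT beside corn oil alone. By edgeR's quasi-likelihood test with Benjamini-Hochberg adjustment over 1113 entries, 0 of 7 members passed an adjusted p of 0.05, and 0% of all entries did. At an unadjusted p under 0.05 it was 0 of 7 members, and 2 higher and 22 lower of all entries. By DESeq2, 0 entries passed, and an unadjusted p under 0.05 was reached by 3 higher and 20 lower. The largest log2 fold changes were those of rno-miR-181c-5p (0.31, SE 0.354, 95% interval -0.470 to 1.089) and rno-miR-181a-5p (0.29, SE 0.18, -0.107 to 0.686), both at an edgeR adjusted p of 1. For rno-miR-181b-5p it was 0.12 (-0.308 to 0.543) and for rno-miR-181d-5p 0.15 (-0.548 to 0.846). The 3p arms stood at -0.02 (rno-miR-181a-1-3p, -0.475 to 0.434), -0.05 (rno-miR-181c-3p, -0.890 to 0.793) and -0.15 (rno-miR-181a-2-3p, -1.196 to 0.901). The median of the members was 0.12, beside 0.01 over all entries and 0.04 over all miRNAs.

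The value of rno-miR-181a-5p depended on which control libraries were in the fit. Without control 1, its log2 fold change in MMT against control was 0.56 (SE 0.149, 95% interval 0.240 to 0.878), with an edgeR adjusted p of 0.713. Without control 2 it was 0.16 and without control 3 it was 0.17. Over its alternatives the adjusted p ran from 0.713 to 1. The fold change was above 0 in each of them, from 0.15 in a fit on miRNA entries alone to 0.56. Control 1 is also the library with the most counts.

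The second comparison sets MnCl2, the positive control of the study, beside corn oil, and shares its control libraries with the first. Again 0 of 7 members passed by edgeR, where 0% of all entries did, and 0 of 7 were under an unadjusted p of 0.05, with 16 higher and 35 lower of all entries. By DESeq2 the counts were 0 entries past the threshold, and an unadjusted p under 0.05 for 16 higher and 53 lower. The log2 fold changes were 0.06 for rno-miR-181a-5p (95% interval -0.335 to 0.460), 0.06 for rno-miR-181b-5p (-0.364 to 0.489), 0.23 for rno-miR-181c-5p (-0.562 to 1.013) and 0.24 for rno-miR-181d-5p (-0.462 to 0.942). In a fit on miRNA entries alone, filtered and scaled anew, these 4 were -0.21, -0.21, -0.07 and -0.05. For rno-miR-181a-5p the value was also 0.33 without control 1 (95% interval 0.009 to 0.646, edgeR adjusted p 0.984). It was -0.12 without control 2 and -0.13 without control 3. The fit on miRNA entries alone, with 613 entries, moved the median of all miRNAs from 0.23 to -0.05 in this comparison. The median moved from 0.04 to -0.10 in MMT against control and from -0.19 to -0.06 in MMT against MnCl2. In the main fit rno-miR-181a-5p and rno-miR-181b-5p of MnCl2 against control therefore stood below the median miRNA, and the same held with miRNAs alone. For the 3p arms the values were 0.37 (rno-miR-181a-2-3p, -0.675 to 1.406), 0.14 (rno-miR-181c-3p, -0.708 to 0.980) and -0.03 (rno-miR-181a-1-3p, -0.491 to 0.424). The members' median was 0.14, beside 0.06 over all entries and 0.23 over all miRNAs.

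The third comparison, MMT against MnCl2, sets the organic beside the inorganic form at unequal manganese doses and in different vehicles. Here too 0 of 7 members passed by edgeR, where 0% of all entries did, and an unadjusted p under 0.05 was found for 0 of 7 members and for 15 higher and 7 lower of all entries. DESeq2 called 0 entries, and 29 higher and 5 lower had an unadjusted p under 0.05. For rno-miR-181a-5p, whose libraries did not overlap between these groups, the log2 fold change was 0.23 (SE 0.18, 95% interval -0.170 to 0.624), at an edgeR adjusted p of 0.981. It ran from 0.16 to 0.36 over the alternatives. The value farthest from 0 was that of rno-miR-181a-2-3p at -0.51 (-1.552 to 0.526), and the other 5 lay between -0.18 (rno-miR-181c-3p) and 0.08 (rno-miR-181c-5p). The members' median was 0.01, beside -0.06 over all entries and -0.19 over all miRNAs.

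**Figure D2:**
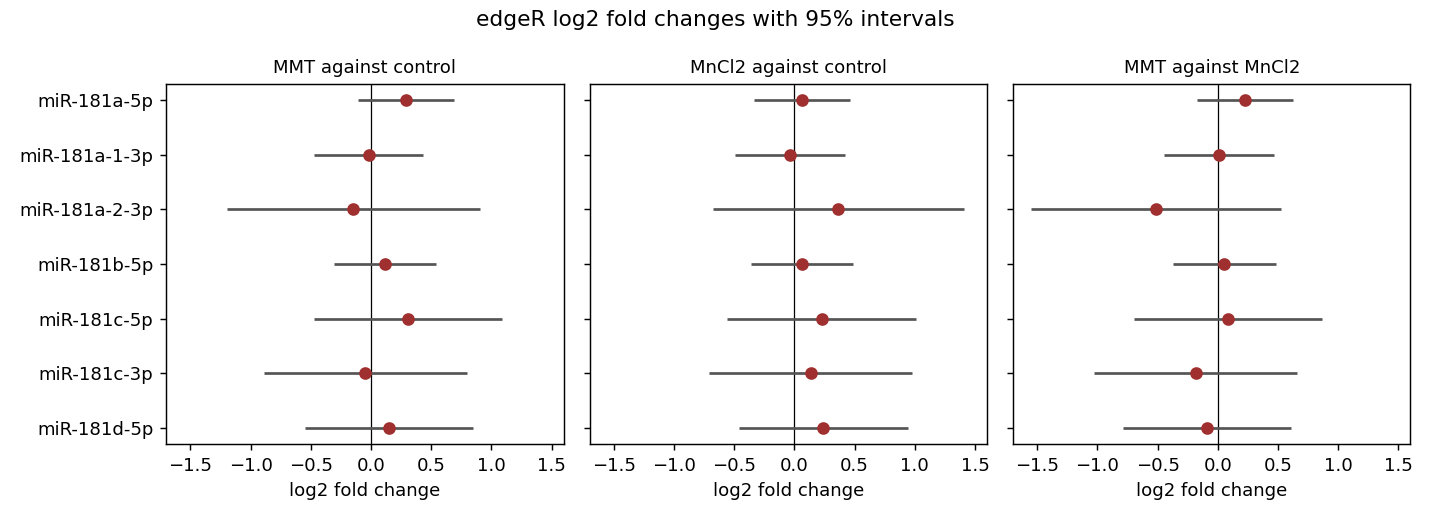
Log2 fold changes from edgeR (horizontal axis) of the 7 miR-181 entries in the 3 comparisons, with points for the estimate and lines for its 95% interval, from 3 libraries per group. All 21 intervals include 0, from the narrow one of miR-181a-5p in MMT against control (-0.107 to 0.686) to the wide one of miR-181a-2-3p in the same comparison (-1.196 to 0.901).

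Because the 5p arms share a seed, their sum gives the total level of that seed. The sum was 1106 ± 255 CPM for controls, 1287 ± 94.6 for MMT and 1171 ± 98.9 for MnCl2 (SD, n = 3), and the control libraries alone spanned 957 to 1400 CPM, which holds every library of the other groups. The share of rno-miR-181a-5p was 49.8% ± 2.64 in control, 52.9% ± 2.8 in MMT and 49.9% ± 3.01 in MnCl2, and it lay between 46.7% and 56% in all 9 libraries. Shares of rno-miR-181b-5p lay between 35.3% and 47%, of rno-miR-181d-5p between 3.3% and 8.25% and of rno-miR-181c-5p between 2.42% and 6.27%. With the most alike sequences summed, the log2 fold change of rno-miR-181b-5p plus rno-miR-181d-5p was 0.12 in MMT against control and 0.08 in MnCl2 against control. That of rno-miR-181a-5p plus rno-miR-181c-5p was 0.29 and 0.07.

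Ratios of 2 members within a library need no scaling between libraries. The ratio of rno-miR-181b-5p to rno-miR-181a-5p was 0.79, 0.812 and 0.866 in control, 0.743, 0.652 and 0.789 in MMT and 0.704, 0.738 and 1.01 in MnCl2. All 3 MMT libraries were below all 3 control libraries, although the nearest values (0.789 and 0.79) hardly differed, and MnCl2 spanned both groups. The log2 difference of MMT from control was -0.18, with an exact two-sided permutation p of 0.1, the smallest that 3 against 3 libraries can give, and 1 after Benjamini-Hochberg adjustment over 12 ratio tests.

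The ratio of rno-miR-181a-1-3p to rno-miR-181a-2-3p sets the chromosome 13 gene of miR-181a beside the chromosome 3 gene, at the level of their 3p arms. It was 8.28, 2.16 and 1.37 in control, 3.53, 1.73 and 3.99 in MMT and 2.16, 1.31 and 2.48 in MnCl2. Control 1 was the highest, and all groups overlapped. The 3 highest ratios, in control 1, MMT 3 and MMT 1, were those of the 3 libraries with the largest totals, and the smallest library, control 3, had a ratio of 1.37. The part of depth in this ratio was not tested. MnCl2 differed from control by -0.60 on the log2 scale (exact two-sided permutation p = 0.7, adjusted 1), and MMT from MnCl2 by 0.60 (exact permutation p = 0.3, adjusted 1).

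Between the arms of the miR-181c hairpin, the ratio of 3p to 5p was 0.626, 0.418 and 0.477 in control, 0.419, 0.398 and 0.363 in MMT and 0.303, 0.733 and 0.559 in MnCl2. The 5p arm was thus the more counted in all 9 libraries. MMT differed from control by -0.35 on the log2 scale (exact permutation p = 0.2, adjusted 1). For rno-miR-181d-5p over its neighbour rno-miR-181c-5p, the geometric means were 1.41 in control, 1.23 in MMT and 1.46 in MnCl2, and adjusted exact permutation p-values were 1 in all 3 comparisons.

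**Figure D3:**
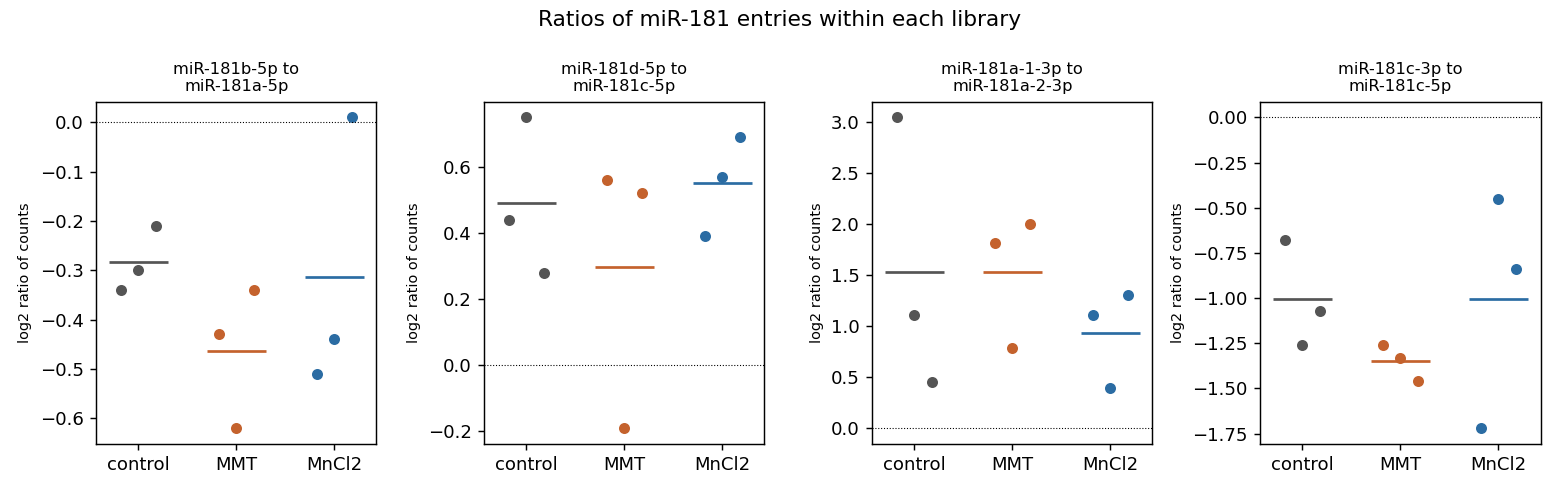
Log2 ratio of counts of 2 miR-181 entries within a library (vertical axes, pseudocount 0.5), by group; points are libraries 1 to 3 from left, horizontal lines the means and dotted lines a ratio of 1. For miR-181b-5p to miR-181a-5p all MMT points are below all control points, the nearest at ratios of 0.789 and 0.79, and for miR-181a-1-3p to miR-181a-2-3p control 1 stands highest at a ratio of 8.28.

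The members did not scale alike with the size of the library. Counts of rno-miR-181a-5p, rno-miR-181b-5p and rno-miR-181a-1-3p followed the total closely over the 9 libraries (r = 0.96, 0.97 and 0.97 between counts and total). Without control 1 and MMT 3 these were 0.85, 0.90 and 0.91. For rno-miR-181c-3p, rno-miR-181d-5p and rno-miR-181c-5p, r was 0.86, 0.76 and 0.71 over the 9 libraries. Without control 1 and MMT 3 it was 0.55, 0.71 and 0.37. Counts of rno-miR-181a-2-3p did not follow the total (r = -0.68, and -0.11 without control 1 and MMT 3). They were 33, 54 and 54 in control, 45, 53 and 44 in MMT and 47, 71 and 55 in MnCl2, a 2.15-fold range beside the 3.45-fold range of totals, and the library with the most counts in all had the fewest of this arm. The correlation of its log2 CPM with the log2 total was -0.96 (Spearman -0.95), and -0.89 without the 2 libraries farthest from the median total, control 1 and MMT 3. The other members gave 0.63 (rno-miR-181b-5p), 0.52 (rno-miR-181a-5p), 0.47 (rno-miR-181a-1-3p), -0.16 (rno-miR-181d-5p), -0.29 (rno-miR-181c-3p) and -0.43 (rno-miR-181c-5p). These are descriptions over 9 libraries without a test, and CPM is itself divided by the total. Low miRNAs as a class ran against the total. The median r was -0.77 over 215 miRNAs under 20 CPM, -0.40 over 200 miRNAs at 20 to 100 CPM, 0.38 over 126 at 100 to 1000 CPM and 0.69 over 74 above that. Ordered from the lowest r within the 20 to 100 CPM class, rno-miR-181a-2-3p was number 2 of 200, rno-miR-181c-5p 98, rno-miR-181c-3p 120 and rno-miR-181d-5p 132. The 3 miR-181 3p entries outside the list also ran against the total, with r = -0.92 for rno-miR-181b-1-3p (number 15 of the same 200), -0.84 for rno-miR-181d-3p and -0.70 for rno-miR-181b-2-3p. With the log2 total as a covariate, the SE of rno-miR-181a-2-3p in MMT against control went from 0.476 to 0.234, and its log2 fold change from -0.15 to 0.07. The SE of the other members also fell, for example from 0.18 to 0.149 for rno-miR-181a-5p and from 0.354 to 0.285 for rno-miR-181c-5p. The part of depth in these values was not tested.

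**Figure D4:**
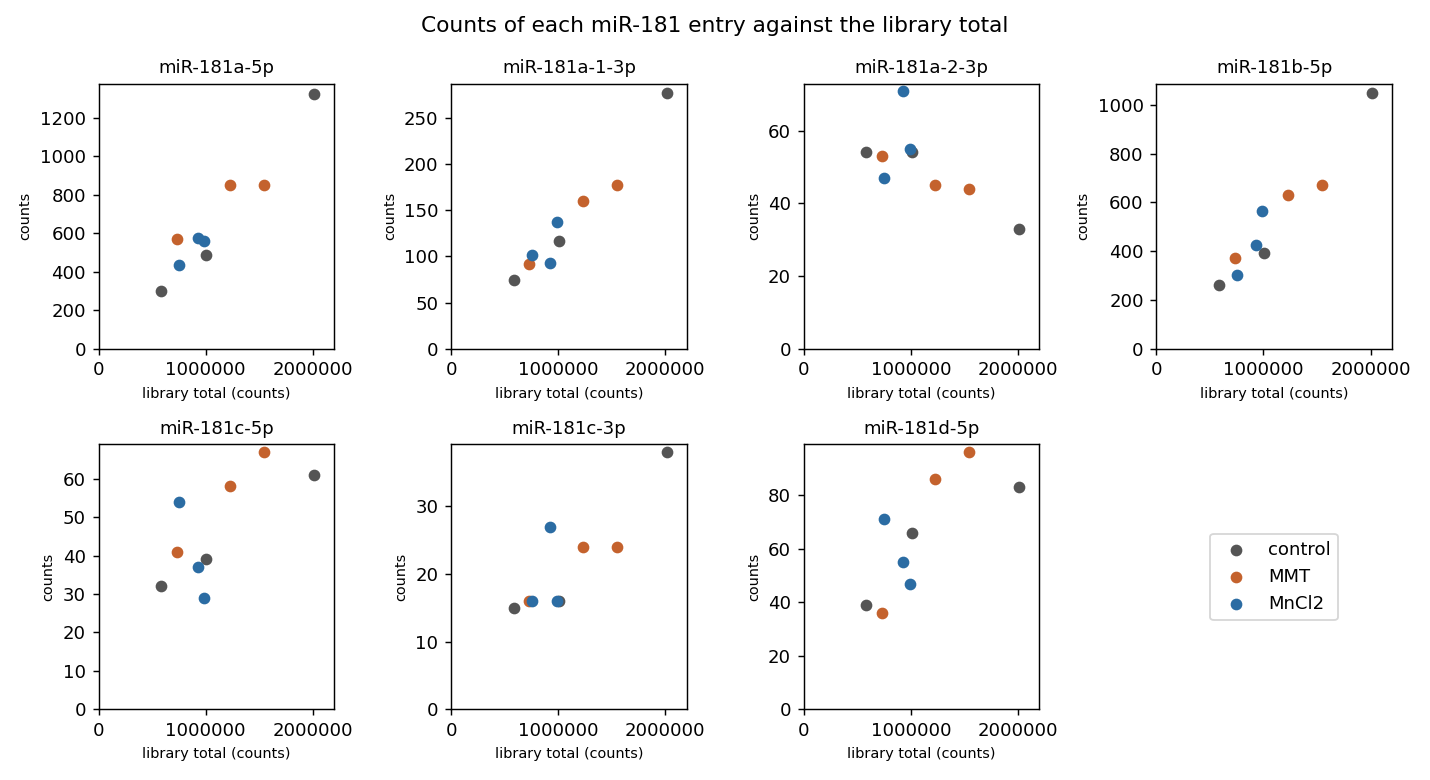
Counts of each miR-181 entry (vertical axes, from 0) against the total count of its library (horizontal axes), 1 point per library, coloured by group. Points of miR-181a-5p, miR-181b-5p and miR-181a-1-3p rise with the total, with some scatter, while those of miR-181a-2-3p stay between 33 and 71 counts and are lowest in the largest library.

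Members that share a precursor or a neighbourhood were alike across libraries to an unequal degree. Over the 9 libraries, which share depth and scaling, the correlation of log2 CPM was 0.73 between rno-miR-181a-5p and rno-miR-181b-5p and 0.73 between rno-miR-181c-5p and rno-miR-181d-5p. It was 0.71 between rno-miR-181b-5p, which is counted from chromosomes 13 and 3 together, and rno-miR-181a-1-3p of chromosome 13. For the arms of the miR-181c hairpin it was 0.24. Between rno-miR-181a-5p and rno-miR-181a-1-3p, arms of the Mir181a-1 hairpin, it was 0.50. For rno-miR-181a-2-3p of chromosome 3 it was -0.58 with rno-miR-181a-5p, the other arm of the Mir181a2 hairpin, and -0.63 with rno-miR-181b-5p.

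The miRNA most like rno-miR-181a-5p outside the family was rno-miR-219a-2-3p, an oligodendrocyte miRNA, with r = 0.92 over 9 libraries. Its levels were 880, 374 and 412 CPM in control, 827, 633 and 591 in MMT and 557, 524 and 697 in MnCl2. As for rno-miR-181a-5p, control 1 was the highest library and controls 2 and 3 were the lowest. Next came its antisense entry rno-miR-219b (0.91), rno-miR-879-3p (0.85), rno-miR-107-3p (0.85) and rno-miR-340-5p (0.79). The levels of rno-miR-219b were near those of rno-miR-219a-2-3p, at 842, 372 and 476 CPM in control. Strand use in the counting is not given, so reads of these 2 entries cannot be told apart. With the log2 total, the 5 miRNAs in turn gave r = 0.61, 0.48, 0.82, 0.71 and 0.68, and rno-miR-181a-5p gave 0.52. The part of depth in this likeness was not tested. Of 605 miRNAs outside the family, 13 were more like rno-miR-181a-5p than its family member rno-miR-181b-5p was.

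**Figure D5:**
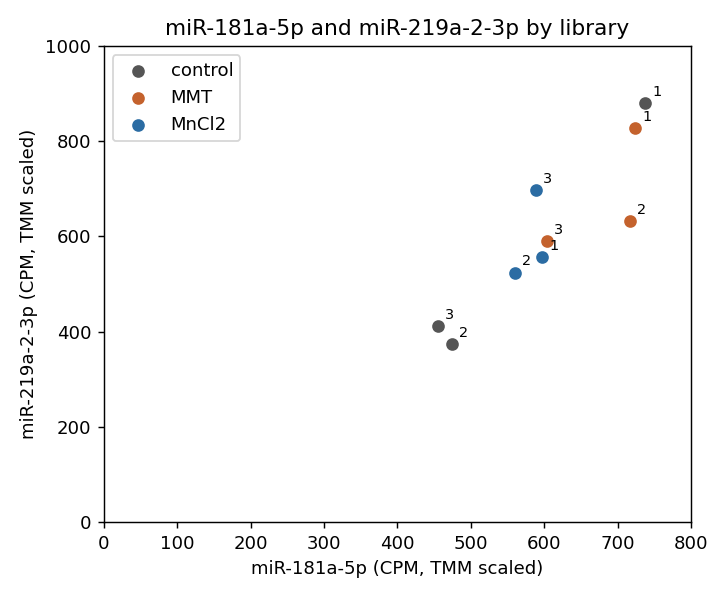
Level of miR-219a-2-3p (vertical axis) against that of miR-181a-5p (horizontal axis), both in CPM after TMM scaling, 1 point per library with its number, coloured by group. Control 1 (737 and 880 CPM) is at the upper right and controls 2 and 3 (474 and 374, 455 and 412 CPM) at the lower left, with the manganese groups between.

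Marker miRNAs of cell types were read beside this. The summed level of the 3 oligodendrocyte markers, which include rno-miR-219a-2-3p, ran from 3406 to 5546 CPM in control, 4741 to 5666 in MMT and 4061 to 5788 in MnCl2, and its correlation with rno-miR-181a-5p was 0.75 over 9 libraries. For the 4 neuron markers, which are known as marks of neural tissue, the sums were 43432 to 59637, 43831 to 57806 and 45100 to 57422 CPM, with r = 0.46. The 5 microglia and immune markers summed to 988.1 to 1398, 989.6 to 1253 and 994.3 to 1410 CPM (r = 0.35), and the 2 endothelial markers to 7587 to 10668, 8482 to 9980 and 8111 to 11521 CPM (r = 0.60). The 2 choroid plexus markers ranged more widely, from 356.1 to 1050, 219.8 to 1936 and 243.5 to 1172 CPM (r = -0.51). Sums of the 2 erythrocyte markers were 44.52 to 74.54, 44.33 to 63.95 and 48.9 to 127.2 CPM (r = -0.26), and those of the 3 muscle markers 76.79 to 124.7, 65.37 to 163.3 and 98.15 to 210.3 CPM (r = -0.17). The groups overlapped for every one of these sums, no marker was at 0 in all libraries, and the part of these cells in the levels of the family was not tested.

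Other miRNAs known for work in the same setting were counted from 2 lists. Of 15 miRNAs tied to dopamine neurons, alpha-synuclein and striatum, 14 were tested and 0 passed in either direction in any comparison, with median log2 fold changes of 0.07 for MMT against control, 0.05 for MnCl2 against control and -0.05 for MMT against MnCl2. The most abundant were rno-miR-9a-5p, a miRNA of neural progenitors and neurons, and rno-miR-7a-5p, a repressor of alpha-synuclein. They stood at 26769 ± 4891 and 24843 ± 3741 CPM in control and had log2 fold changes of 0.07 and 0.06 in MMT and 0.02 and -0.11 in MnCl2, each against control. Of 19 miRNAs tied to mitochondria, 19 were tested and 0 passed in either direction in any comparison, with medians of 0.16, 0.15 and 0.04. Over all miRNAs the medians of the 3 comparisons were 0.04, 0.23 and -0.19, and over all entries 0.01, 0.06 and -0.06. In each comparison 0% of all entries passed. By edgeR, an unadjusted p under 0.05 was reached by 0 of the dopamine list in any comparison. It was reached by 1 of the mitochondria list, in MnCl2 against control, where 16 higher and 35 lower of all entries did. The most abundant of that list were rno-miR-30c-5p (0.03 and 0.00 in the 2 comparisons with control) and rno-miR-27b-3p (0.19 and 0.15).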

How the data were processed

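Small RNAs of rat striatum were measured in 9 libraries, 3 per group. Per the labels' protocols, TRIzol RNA was run on a gel, fragments of 15 to 45 nucleotides were cut out, and the QIAseq miRNA kit was used for the libraries. Per the submitters' processing notes, Trimmomatic (no version stated) trimmed the reads and the build was rn6. Not given in the sources used here are the aligner, the mismatches allowed, the handling of reads with several matches, and whether strand or molecular identifiers were used. The authors deposited raw counts per entry, without normalization. No 2 libraries were near copies (lowest chi-square per degree of freedom 5.97).

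The test across all entries was that of edgeR 4.0.16 under R 4.3.3 (quasi-likelihood test with robust weights after TMM scaling and filterByExpr, all 9 libraries together, two-sided, Benjamini-Hochberg over 1113 entries, threshold 0.05), and only the rows of the family were read out. Log2 CPM for correlations used a prior count of 2. Ratios used a pseudocount of 0.5 and exact permutation tests. The miRNAs named beside the family were the 5 with the highest correlation with rno-miR-181a-5p, entries antisense to a member, and the 2 most abundant of each list when none passed. Groups came from the labels. The members and lists were chosen with earlier results of these data known. Scripts were tested on simulated data. Alternatives were DESeq2 1.42.0, other scalings and filters, a fit on miRNA entries alone and 2 groups alone. Others were a fit without robust weights, the total as a covariate, a replicate block and each library left out. Positions and the hairpin sequence came from RefSeq (GRCr8). Mature entries were matched to it by name, and their sequences were then compared. Other steps ran in Python 3.11.15 (pandas 2.3.3, numpy 2.4.6, matplotlib 3.10.9, scipy 1.17.1).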

Additional observations from a re-analysis of the deposited data

How the results depend on the processing

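The count of members past an adjusted p of 0.05 was 0 in all 3 comparisons under every alternative run. Of fold changes and counts, 418 values kept their direction and their side of the threshold and 44 changed sign, and of ratio differences 84 and 12. In MMT against control, the sign turned for rno-miR-181a-2-3p with the total as a covariate (0.07) and for rno-miR-181b-5p with miRNAs alone (-0.02). In MnCl2 against control, it turned for rno-miR-181a-1-3p with that covariate (0.04), with no filter for rno-miR-181a-5p (-0.04) and rno-miR-181b-5p (-0.04), and with miRNAs alone for rno-miR-181a-5p (-0.21), rno-miR-181b-5p (-0.21), rno-miR-181c-3p (-0.12), rno-miR-181c-5p (-0.07) and rno-miR-181d-5p (-0.05). In MMT against MnCl2, it turned for rno-miR-181a-1-3p with the covariate (-0.06) and total counts alone (-0.01), for rno-miR-181b-5p with the covariate (-0.04) and for rno-miR-181d-5p with miRNAs alone (0.06). The cause was not tested. The filter of 10 CPM in 3 libraries kept the same number of entries, 1113, and gave the members the same fold changes. Its values are therefore among the kept ones without being an alternative fit. The counts of 0 calls, also among the kept ones, have no direction.

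With 1 library left out, log2 fold changes that changed sign ran as follows. In MMT against control they ran from -0.11 to 0.16 (rno-miR-181a-1-3p), -0.58 to 0.39 (rno-miR-181a-2-3p), -0.01 to 0.35 (rno-miR-181b-5p) and -0.21 to 0.05 (rno-miR-181c-3p). In MnCl2 against control they ran from -0.18 to 0.15 (rno-miR-181a-1-3p), -0.06 to 0.83 (rno-miR-181a-2-3p), -0.13 to 0.33 (rno-miR-181a-5p), -0.13 to 0.29 (rno-miR-181b-5p), -0.07 to 0.29 (rno-miR-181c-3p), -0.26 to 0.46 (rno-miR-181c-5p) and -0.13 to 0.41 (rno-miR-181d-5p). In MMT against MnCl2 they ran from -0.18 to 0.14 (rno-miR-181a-1-3p), -0.04 to 0.24 (rno-miR-181b-5p), -0.16 to 0.57 (rno-miR-181c-5p) and -0.28 to 0.28 (rno-miR-181d-5p). Log2 ratio differences ran from -0.54 to 0.76 in MMT and -1.14 to 0.16 in MnCl2 against control for rno-miR-181a-1-3p over rno-miR-181a-2-3p. For rno-miR-181b-5p over rno-miR-181a-5p they ran from -0.19 to 0.07 in MnCl2 against control and -0.25 to 0.01 in MMT against MnCl2. For rno-miR-181c-3p over rno-miR-181c-5p they ran from -0.28 to 0.36 in MnCl2 against control, and for rno-miR-181d-5p over rno-miR-181c-5p from -0.33 to 0.05 in MMT and -0.05 to 0.19 in MnCl2 against control.

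With the replicate number as a block, 0 members passed in any comparison, and rno-miR-181a-5p stood at 0.32 in MMT against control. Correlations of deviations between same-numbered libraries took both signs. They were 0.317, 0.333 and -0.666 in MMT and control, and -0.0213, 0.0624 and -0.371 in MnCl2 and control. In MMT and MnCl2 they were -0.163, 0.493 and 0.256. Between differently numbered libraries they ran from -0.771 to 0.753. Whether same-numbered libraries share more than a number was not tested. Over the 9 libraries rno-miR-181c-3p had 192 counts and rno-miR-181c-5p 418, and their 95% intervals were wider than those of rno-miR-181a-5p in all 3 comparisons. Those of rno-miR-181a-2-3p, with 456 counts, were wider still. The part of depth was not tested.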
